A study of Mus musculus with 6 samples.

Results

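A set of 10 genes marks the neurons that make dopamine, noradrenaline, serotonin or acetylcholine, and their RNA was followed in each library of mouse brain. They were chosen by gene symbol, as the rows named Th, Ddc, Slc6a3, Slc6a2, Dbh, Tph2, Slc6a4, Slc18a2, Chat and Slc5a7, which are 10 of the 38087 genes in the table. Brain RNA came from 3 wild-type (WT) and 3 Sgo1-/+ mice, all of strain C57BL6 and 24 months old, with 1 library per mouse. Sgo1 (Shugoshin 1) protects the cohesin that holds sister chromatids together, and the Sgo1-/+ mice are haploinsufficient for it, with 1 of its copies disrupted. WT 1 and Sgo1-/+ 2 were male and the other 4 mice were female. All WT libraries were sequenced in run 258 and all Sgo1-/+ libraries in run 259, so genotype and run cannot be told apart.

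A monoamine neuron is recognised by its synthesis enzymes and by the transporters that carry the transmitter. Tyrosine hydroxylase (Th) and aromatic L-amino acid decarboxylase (Ddc) make dopamine, dopamine beta-hydroxylase (Dbh) turns it into noradrenaline, and tryptophan hydroxylase 2 (Tph2) starts serotonin synthesis in neurons. Most of these cell bodies lie in the midbrain and hindbrain (substantia nigra, locus coeruleus, raphe), whereas the cortex and striatum hold mainly their axons. Dopamine neurons that make Th also lie in the olfactory bulb, and cholinergic neurons, marked by Chat and Slc5a7, lie in the basal forebrain, the striatum, the medial habenula and the motor nuclei of the brain stem.

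The libraries held 11123917 to 12505561 estimated counts. The targeted gene Sgo1 had estimated counts of 0, 7 and 0 in WT and 4, 2 and 0 in Sgo1-/+, too few to check the genotype. The study's methods describe the tissue as cerebrum without olfactory bulb, cerebellum and medulla, and region markers went against this in several libraries. In WT 1, all 17 hindbrain and medulla markers and all 9 cerebellum markers were higher than in any other library. Their summed normalized counts were 5019 and 22063 there, against 17.7 to 67.6 and 457 to 1136 elsewhere. The 5 dorsal midbrain markers summed to 579 in WT 1, against 28.3 to 76.2 elsewhere, and 4 of them were highest there. All 8 striatum and all 6 cortex markers were lowest in WT 1. Summed hypothalamus markers also varied, from 275 in WT 1 and 455 in Sgo1-/+ 3 to 1072 in Sgo1-/+ 1. Summed medial habenula markers ran from 310 in WT 1 to 780 in WT 3. Olfactory bulb markers (Eomes, Tbx21, Cdhr1, Doc2g and Sp8) summed to 1802 in WT 2, 1422 in WT 3 and 818 in Sgo1-/+ 1, against 172 in WT 1, 168 in Sgo1-/+ 2 and 99.4 in Sgo1-/+ 3. Of 4 thalamus markers, Tcf7l2, Lef1 and Prkcd were highest in Sgo1-/+ 3, where they summed to 2717 with Gbx2 and Prkcd alone had 2114, while Gbx2 was highest in WT 1. The log2 fold changes of the 10 genes, and those printed for listed pathway genes, are therefore given with and without WT 1. Fewer cells of a type cannot be told apart from less RNA per cell in such bulk samples.

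The promoters of 5 of these genes are shown because 4 of them hold a sequence motif that was searched and the remaining gene, Dbh, holds none although it stood out in WT 1. Each is the 250 bases before a start site in RefSeq on build GRCm38.p6, with motif matches in capitals.
Th, chr7:142899996-142900245, minus strand: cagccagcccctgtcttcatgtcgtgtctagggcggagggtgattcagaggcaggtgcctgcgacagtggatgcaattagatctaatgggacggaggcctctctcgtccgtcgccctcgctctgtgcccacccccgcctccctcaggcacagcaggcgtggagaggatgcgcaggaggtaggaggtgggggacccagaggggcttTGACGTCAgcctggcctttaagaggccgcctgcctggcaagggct
Ddc, chr11:11898145-11898394, minus strand: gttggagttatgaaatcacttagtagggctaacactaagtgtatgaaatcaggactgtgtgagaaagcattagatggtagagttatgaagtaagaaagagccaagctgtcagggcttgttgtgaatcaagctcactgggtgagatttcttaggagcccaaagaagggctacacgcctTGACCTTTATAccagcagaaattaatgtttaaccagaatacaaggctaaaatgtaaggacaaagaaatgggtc
Dbh, chr2:27165257-27165506, plus strand: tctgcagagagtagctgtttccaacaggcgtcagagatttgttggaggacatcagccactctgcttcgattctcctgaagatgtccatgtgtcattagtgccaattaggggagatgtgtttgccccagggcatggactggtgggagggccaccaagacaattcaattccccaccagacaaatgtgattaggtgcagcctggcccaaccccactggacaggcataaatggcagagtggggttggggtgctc
Tph2, chr10:115185023-115185272, minus strand: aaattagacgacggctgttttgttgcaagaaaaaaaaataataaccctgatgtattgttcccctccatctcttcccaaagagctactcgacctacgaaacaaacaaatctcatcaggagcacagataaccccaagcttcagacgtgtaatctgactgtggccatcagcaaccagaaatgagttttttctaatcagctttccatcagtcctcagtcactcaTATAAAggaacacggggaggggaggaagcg
Slc5a7, chr17:54299035-54299284, minus strand: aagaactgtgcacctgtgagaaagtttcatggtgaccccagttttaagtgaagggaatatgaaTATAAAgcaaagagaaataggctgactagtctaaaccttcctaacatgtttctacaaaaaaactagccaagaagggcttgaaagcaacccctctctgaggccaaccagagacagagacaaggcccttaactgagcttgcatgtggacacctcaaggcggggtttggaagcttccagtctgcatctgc
RefSeq promoters were found for 9 of the 10 genes, and Ddc had windows at 2 start sites. The motifs, searched on both strands, were the cAMP response element TGACGTCA, the TATA box TATAAA and the nuclear receptor 4a element AAGGTCA. The cAMP response element was in Th alone, with its first base at -45, counting the base before the start site as -1. It occurred in 1.55% of 32851 promoter windows of the same length. A TATA box was in Tph2, Slc5a7 and Ddc, and in 12.4% of all windows. In Tph2 it began at -30, in Slc5a7 at -187, and in Ddc at -68 on the opposite strand, where it overlapped the nuclear receptor 4a element at -73. That element was in 4.08% of all windows. A match describes the letters and not a site of binding.

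Between the genotypes none of the 10 genes passed the test over all 6 libraries, and 6 of them were highest in the library WT 1. In the edgeR quasi-likelihood test, 8 of the 10 genes passed the filter on low counts, and Slc6a2 and Dbh were fitted with the filter off. No gene of the 16337 tested had an adjusted p under 0.05 (0%; DESeq2's Wald test called 3), and 333 had an unadjusted p under 0.05 (2.04%), 132 of them higher in Sgo1-/+ (0.808%) and 201 lower (1.23%). None of the 10 genes was among the 333, and DESeq2 gave 1 of them, Th, an unadjusted p under 0.05. None of the 10 had groups that did not overlap, against 1119 genes (6.85%) among all tested. The genes highest in WT 1 were Slc6a2, Dbh, Tph2, Slc6a4, Slc18a2 and Slc5a7, and 4 genes were lowest in Sgo1-/+ 3. How many of all tested genes had these extremes was not counted. WT 1 was the library least like the others, with a mean r of 0.935 against 0.967 to 0.970 for the rest. The median log2 fold change of the 8 tested genes was -0.27, against -0.000694 over all tested genes, and without WT 1 it was 0.13 against 0.01. An exact permutation test (two-sided, 20 ways to group the libraries, smallest possible p 0.1) gave p-values between 0.2 and 1 for the 10 genes. The mice are separate animals, so these p-values measure the spread between animals and their dissection.

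**Figure D1:**
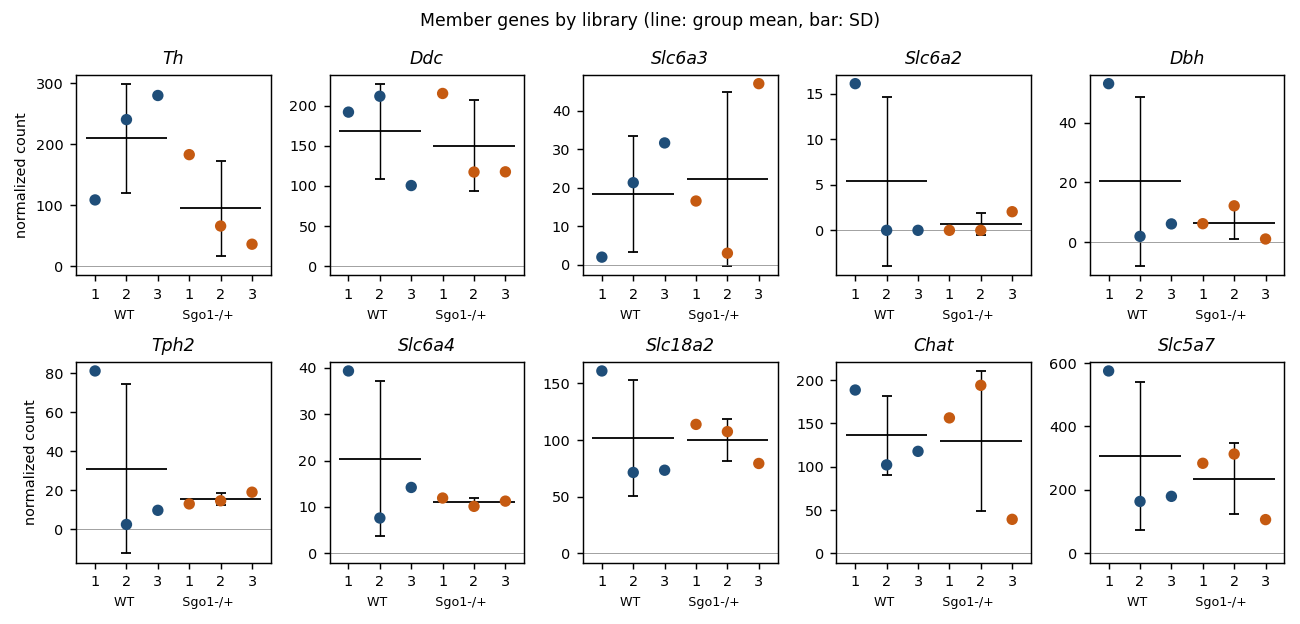
Normalized counts of the 10 genes by library (vertical axis, a scale of its own for each gene), WT in blue and Sgo1-/+ in orange, with the group mean as a line and the SD as a bar. Dbh at 53.2 and Tph2 at 81.1 in WT 1 stand above every other library, and Th ranges from 36.0 in Sgo1-/+ 3 to 280 in WT 3.

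Th was the member with the lowest Sgo1-/+ level relative to WT among those that passed the filter, and it had the same order over the libraries as the summed olfactory bulb markers in all but 1 pair, though single markers departed from that order in more pairs. Th (ENSMUSG00000000214, chromosome 7, 142892752 to 142931128, minus strand), which encodes the rate-limiting enzyme of dopamine and noradrenaline synthesis, had normalized counts of 109, 241 and 280 in WT 1 to 3 and 183, 65.9 and 36.0 in Sgo1-/+ 1 to 3. WT 2 and WT 3 were high and Sgo1-/+ 2 and 3 low, and the groups overlapped because Sgo1-/+ 1 lay above WT 1. The log2 fold change was -1.14 (SE 0.615, 95% interval -2.60 to 0.31, edgeR unadjusted p = 0.106, adjusted p = 0.9999). Without WT 1 it was -1.45 (SE 0.549, edgeR unadjusted p = 0.0317, adjusted p = 0.9995), and the groups no longer overlapped. Without WT 1, 626 of 16617 genes (3.77%) had an unadjusted p under 0.05 and 0% an adjusted p under 0.05. Without Sgo1-/+ 1 the log2 fold change of Th was -2.04, and without Sgo1-/+ 3 it was -0.75. The olfactory bulb markers moved with Th. All 5 were lower in Sgo1-/+ at an unadjusted p under 0.05 without WT 1, with log2 fold changes of -1.97 (Sp8) to -2.49 (Eomes), and none was with all libraries. Th per summed olfactory bulb count was 0.134 and 0.197 in WT 2 and WT 3, 0.224 in Sgo1-/+ 1, 0.391 and 0.362 in Sgo1-/+ 2 and 3, and 0.633 in WT 1, so the ratio was lowest where those markers were highest. Their part in the Th difference was not tested.

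Ddc and Slc6a3 did not follow Th. Ddc (ENSMUSG00000020182, chromosome 11, 11814101 to 11898144, minus strand), the decarboxylase shared by dopamine and serotonin neurons, had normalized counts of 192, 212 and 101 in WT and 215, 117 and 118 in Sgo1-/+. Its highest and lowest libraries were Sgo1-/+ 1 and WT 3, and Ddc per Th ran from 0.359 in WT 3 to 3.27 in Sgo1-/+ 3. Between the groups Ddc differed by -0.16 in log2 fold change (SE 0.359, 95% interval -1.02 to 0.69), and by -0.06 without WT 1. Slc6a3 (ENSMUSG00000021609, chromosome 13, 73536747 to 73578672, plus strand), the transporter that returns dopamine to the neuron, had normalized counts of 2.01, 21.3 and 31.7 in WT and 16.6, 3.04 and 47.1 in Sgo1-/+. It was highest in Sgo1-/+ 3, the library lowest for Th, and close to the floor of 3 counts in WT 1 and Sgo1-/+ 2. Its log2 fold change of 0.30 had a 95% interval of -2.13 to 2.73, and without WT 1 it was -0.23.

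Of the 8 listed regulators and markers of midbrain dopamine neurons, 2 had counts of 0 throughout, and Nr4a2 and Aldh1a1 passed the filter. Pitx3 and Foxa2, which midbrain dopamine neurons need, had a count of 0 in all 6 libraries, which allows up to 3 counts in each. Foxa1 had 10.2 normalized counts in Sgo1-/+ 3 and 0 elsewhere. Lmx1a had 22.2 in WT 1 and 16.4 in Sgo1-/+ 3 and at most 2.11 in the other libraries, and the dopamine neuron nicotinic subunit Chrna6 had 12.6 and 18.4 in those libraries and at most 5.71 elsewhere. Sgo1-/+ 3, highest for Slc6a3, was thus the library with Foxa1 and the highest Chrna6. It was also the lowest library for Th. Lmx1b had 2.05 there, against 59.3 in WT 1 and 0 to 4.76 in the other libraries. Nr4a2, a nuclear receptor of dopamine neurons that cortical neurons also make, had normalized counts of 147, 271 and 594 in WT and 411, 581 and 567 in Sgo1-/+ (log2 fold change 0.62, SE 0.465, edgeR unadjusted p = 0.223, and 0.27 without WT 1). Aldh1a1, an aldehyde dehydrogenase of some of these neurons, had 250 to 961 (log2 fold change -0.14, SE 0.539, and 0.53 without WT 1). En1 had 36.2 in WT 1, its highest library, and 3.42 in Sgo1-/+ 3, its lowest.

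The noradrenaline genes were found mainly in 1 WT library. Dbh (ENSMUSG00000000889, chromosome 2, 27165233 to 27183200, plus strand) had normalized counts of 53.2, 1.90 and 6.09 in WT and 6.16, 12.2 and 1.02 in Sgo1-/+. WT 1 held 86.9% of the WT sum and was 4.37-fold above the next library. Slc6a2 (ENSMUSG00000055368, chromosome 8, 92960079 to 93001667, plus strand), the noradrenaline transporter, had 16.1 in WT 1, 2.05 in Sgo1-/+ 3 and 0 in the other 4 libraries. WT 1 was at least 5.37-fold higher than a library at 0, taking a floor of 3 normalized counts per library. For Dbh the log2 fold change was -1.67 (SE 1.14) with all libraries and 0.67 without WT 1. That of Slc6a2 was -2.78 (SE 1.84) and, resting on Sgo1-/+ 3 alone, 2.68 (SE 2.75) without WT 1. Phox2a, a transcription factor of noradrenaline neurons, ranged over 9.52 to 24.9 normalized counts, with its highest value in WT 3. Tlx3, a regulator of hindbrain neurons, had 43.8 in WT 1 and at most 0.19 elsewhere. Dbh, Slc6a2 and Tlx3 moved with the hindbrain and medulla markers of WT 1, where cerebellum and dorsal midbrain markers were also high. The part of the dissection was not tested. Pnmt, which makes adrenaline, did not exceed 6.14 in any library.

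Serotonin neuron genes were also highest in WT 1. Tph2 (ENSMUSG00000006764, chromosome 10, 115078641 to 115185022, minus strand) had normalized counts of 81.1, 2.38 and 9.64 in WT and 12.9, 14.5 and 18.9 in Sgo1-/+. WT 1 was the highest, the other WT libraries were the lowest, and the 3 Sgo1-/+ libraries lay between. The log2 fold change was -1.02 (SE 1.07, 95% interval -3.56 to 1.53) with all libraries and 1.33 (SE 0.678, 95% interval -0.26 to 2.92, edgeR unadjusted p = 0.0883, adjusted p = 0.9995) without WT 1, so 1 library set its direction. Slc6a4 (ENSMUSG00000020838, chromosome 11, 76998603 to 77032340, plus strand), the serotonin transporter, had 39.3, 7.62 and 14.2 in WT and 11.9, 10.1 and 11.3 in Sgo1-/+. WT 1 held 64.3% of its WT sum, and the log2 fold change moved from -0.86 (SE 0.614) to 0.03 without it. Tph2 per Slc6a4 ran from 0.313 in WT 2 to 2.06 in WT 1. Among regulators of these neurons, Lmx1b had 59.3 and Gata3 57.1 normalized counts in WT 1, against at most 4.76 and 6.43 elsewhere, while Fev, the factor most restricted to serotonin neurons, reached only 6.83. Gata2 and Phox2a, with counts in every library, differed by -0.19 (SE 0.242) and -0.16 (SE 0.412) in log2 fold change, and by -0.09 and -0.19 without WT 1.

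Slc18a2 (ENSMUSG00000025094, chromosome 19, 59260878 to 59296012, plus strand), the vesicular transporter used by all monoamine neurons, had normalized counts of 161, 71.4 and 73.4 in WT and 114, 107 and 79.3 in Sgo1-/+. WT 1 was again highest, with the 3 Sgo1-/+ libraries above WT 2 and WT 3. The log2 fold change was -0.02 (SE 0.361, 95% interval -0.88 to 0.84) and without WT 1 0.48 (SE 0.238, 95% interval -0.08 to 1.03). Without WT 1, Th, Tph2 and Slc18a2 had groups that did not overlap, as did 18.0% of all tested genes. In the annotation 1 of the 11 exon blocks of Slc18a2 was overlapped on the opposite strand by Gm29261, and the library kit did not mark strand.

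**Figure D2:**
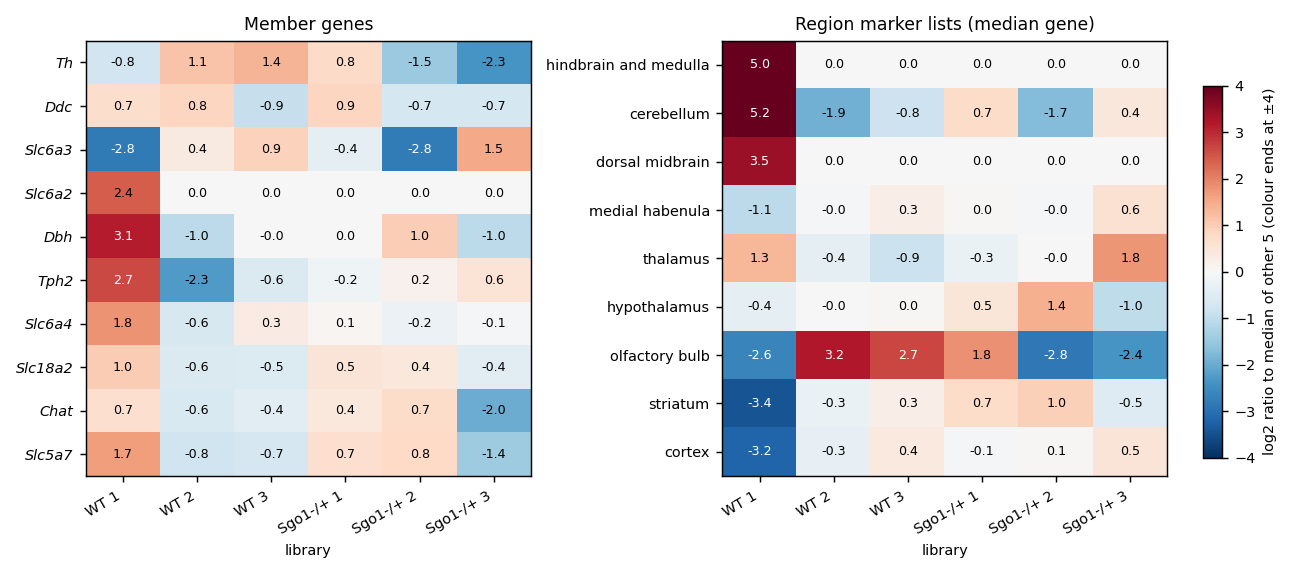
Log2 ratio of each gene (left) and of the median gene of each region marker list (right) in every library (horizontal axis) to the median of the other 5 libraries, with values under 3 counts set to 3 and red for higher. In WT 1, Dbh at 3.1 and Tph2 at 2.7 are high beside the hindbrain and cerebellum lists, and Th follows the signs of the olfactory bulb row in all 6 libraries.

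The cholinergic genes were high in WT 1 and Sgo1-/+ 2 and low in Sgo1-/+ 3. Slc5a7 (ENSMUSG00000023945, chromosome 17, 54273594 to 54299034, minus strand), which takes up choline for acetylcholine synthesis, had normalized counts of 575, 164 and 180 in WT and 284, 313 and 107 in Sgo1-/+. WT 1 held 62.6% of the WT sum. The log2 fold change was -0.38 (SE 0.590) with all libraries and 0.45 (SE 0.408) without WT 1. Chat (ENSMUSG00000021919, chromosome 14, 32408203 to 32465909, minus strand), the enzyme that makes acetylcholine, had 188, 102 and 118 in WT and 156, 194 and 39.3 in Sgo1-/+. Sgo1-/+ 2 and WT 1 were highest and Sgo1-/+ 3 was lowest. The log2 fold change was -0.07 (SE 0.546, 95% interval -1.37 to 1.23), and 0.24 without WT 1.

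Markers of different cholinergic neurons separated the libraries that shared a high Chat level. Lhx8, a regulator of forebrain cholinergic neurons, had normalized counts of 4.03, 50.2 and 42.1 in WT and 71.3, 95.7 and 12.4 in Sgo1-/+. Chat per Lhx8 was 46.8 in WT 1 and 2.03 to 3.16 in the other 5 libraries. Isl1, which forebrain cholinergic neurons also make, had 11.1, 97.7 and 50.7 in WT and 101, 119 and 61.9 in Sgo1-/+. Prph, which encodes peripherin and is abundant in motor neurons, had 286 in WT 1 and at most 11.5 elsewhere. Slc5a7 per Chat was 3.05 in WT 1, 2.71 in Sgo1-/+ 3 and 1.53 to 1.82 in the other 4. Among the cholinergic regulators and markers, Isl1, Lhx8, Gbx1 and Ngfr were highest in Sgo1-/+ 2, where all 8 striatum markers were also highest, and Mnx1 was under the floor of 3 counts in all libraries. The log2 fold changes with all libraries were 0.89 (SE 0.914) for Lhx8, 0.82 (SE 0.661) for Isl1 and 0.24 (SE 0.300) for the neurotrophin receptor gene Ngfr, and without WT 1 they were 0.37, 0.34 and 0.45. The transporter gene Slc18a3 was not analysed here.

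**Figure D3:**
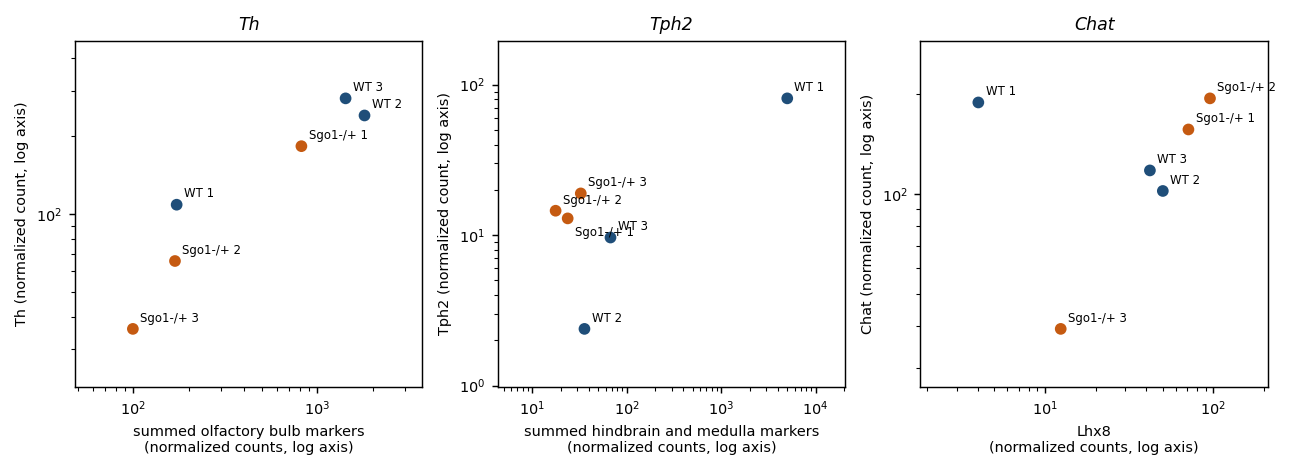
Th against the summed olfactory bulb markers, Tph2 against the summed hindbrain and medulla markers, and Chat against Lhx8, all as normalized counts on log axes, with 1 labelled point per library (WT blue, Sgo1-/+ orange). Th rises with the bulb markers except between WT 2 and WT 3, Tph2 is high in WT 1 alone, and WT 1 pairs a Chat level of 188 with a Lhx8 level of 4.03.

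**Figure D4:**
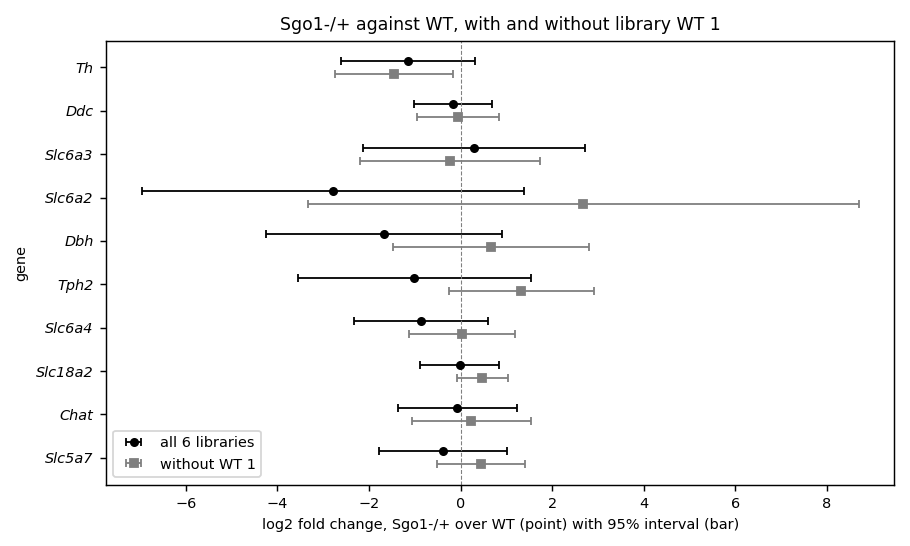
Log2 fold change of each gene in Sgo1-/+ over WT (horizontal axis) with its 95% interval, for all 6 libraries (black circles) and without WT 1 (grey squares). Among these intervals only that of Th without WT 1 lies on 1 side of 0, and Tph2 moves from -1.02 to 1.33.

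Per kilobase of exon, the median levels over the 6 libraries ran from Th at 61.7 normalized counts per kb through Slc5a7 at 41.1, Ddc at 34.7, Chat at 29.1 and Slc18a2 at 17.9 to Slc6a3 at 5.49, Tph2 at 4.77, Slc6a4 at 2.56, Dbh at 2.27 and Slc6a2 at 0. The ranges over libraries of neighbours in this order overlapped in 8 of 9 pairs. The exception was Slc18a2, at no less than 13.67 per kb, above Slc6a3, at no more than 13.62. Within libraries, Th was above Slc5a7 in 3 of 6 and Slc18a2 above Slc6a3 in 6 of 6.

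For each of the 8 genes that passed the filter, tested genes were ranked by Pearson r of log2 library-scaled counts (prior count 2). This is a description over 6 points that share their dissection and depth. Such an r compares the pattern and not the size of change, and Clcn3 ran only from 2506 to 2913. The values are the highest picked from 16337 tested genes, so their height is set by the search. The highest were Gbp9, Zfp119a and Clcn3 for Th (r from 0.989 to 0.994), Gm8292 and Phyhd1 for Ddc, and Tmem86a, Sip1 and Mcph1 for Slc6a3. For Tph2 they were Diras1, Atp10b and Mbnl1, for Slc6a4 Echdc1, Akr1b10 and Car5b, and for Slc18a2 Tpm2, Zcwpw1 and Dfna5. For Chat they were St8sia2, Gm13436 and Sv2c, and for Slc5a7 A530040E14Rik, Mycbp and Gm14420 (r from 0.982 to 0.991). Leaving out the 2 libraries farthest from the median of Tph2, which were WT 1 and WT 2, took its r with Diras1 from 0.993 to 0.798 and with Mbnl1 from 0.991 to 0.676. For Gbp9, normalized counts of 59.3, 104 and 106 in WT and 82.2, 42.7 and 33.7 in Sgo1-/+ kept the order of Th in every library, and its r was 0.992 without Sgo1-/+ 2 and 3.

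Among the enzymes and transporters that serve these neurons, no gene passed the test. Of 9 cofactor and breakdown enzymes, 8 were tested, with a median log2 fold change of 0.01, from -0.66 (SE 0.508) for Gch1 to 0.22 (SE 0.126) for Maob. Without WT 1 the median was 0.19, Gch1 was at -0.70 and Maob at 0.29. Gch1, which starts synthesis of the tetrahydrobiopterin that Th and Tph2 require, had normalized counts of 28.2, 40.0 and 22.3 in WT and 33.8, 13.2 and 10.2 in Sgo1-/+. Like Th, it was lowest in Sgo1-/+ 3. Maob, which breaks down amines, had 409, 339 and 374 in WT and 424, 404 and 476 in Sgo1-/+, with the groups overlapping. Of the other synthesis and transport genes, 6 were tested, from -0.67 (SE 0.669) for the monoamine transporter Slc29a4 to 0.42 (SE 0.697) for Slc22a3, which moves monoamines at low affinity. Leaving out WT 1 turned both, to 0.53 (SE 0.320) for Slc29a4 and -0.08 (SE 0.390) for Slc22a3. Hdc, which makes histamine, had 50.6, 40.2 and 8.12 in WT and 26.8, 18.2 and 49.1 in Sgo1-/+ (log2 fold change -0.07, SE 0.659, and 0.37 without WT 1). The range of 8.12 to 50.6 lay within WT alone.

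Of 44 receptor genes for these transmitters, 38 were tested, 0 had an unadjusted p under 0.05 in the direction of higher in Sgo1-/+ and 2 were lower, Chrm2 and Chrna3, against 1.23% of all genes in that direction. Chrm2, a muscarinic receptor that restrains acetylcholine release, had 494, 381 and 401 normalized counts in WT and 333, 287 and 304 in Sgo1-/+, so that it was lower by a log2 fold change of -0.47 (SE 0.142, edgeR unadjusted p = 0.0137, adjusted p = 0.9999). Chrna3, a nicotinic subunit of the medial habenula and autonomic neurons, had 32.2, 17.1 and 16.2 in WT and 8.28, 4.05 and 8.19 in Sgo1-/+, lower by a log2 fold change of -1.68 (SE 0.461, edgeR unadjusted p = 0.00850, adjusted p = 0.9999). For both genes every WT library lay above every Sgo1-/+ library, and WT 1 was the highest. Without WT 1 their log2 fold changes were -0.34 and -1.29, and of 39 receptors tested, 2 were higher (Adrb1 and Htr7) and 5 lower (Adra1a, Htr3a, Chrm2, Chrna3 and Chrna10) at an unadjusted p under 0.05, against 1.86% of all genes tested in that fit higher and 1.91% lower.

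No receptor had an adjusted p under 0.05 over all 6 libraries. Of the 38 tested receptors, 24 were lowest in WT 1, where the striatum and cortex markers were also lowest. How many of all tested genes were lowest in WT 1 was not counted. Drd2, a dopamine receptor of striatal neurons, had normalized counts of 96.0, 256 and 373 in WT and 449, 736 and 350 in Sgo1-/+, with a log2 fold change of 1.08 (SE 0.492, edgeR unadjusted p = 0.0644), and 0.70 (SE 0.319) without WT 1. Drd3 had the smallest change of the dopamine receptors, 0.29 (SE 0.898), and was at -0.18 without WT 1. The adrenergic receptors ranged from -0.39 (SE 0.327) for Adra2a to 0.81 (SE 0.450) for Adrb1, which had 60.0, 206 and 237 in WT and 250, 318 and 317 in Sgo1-/+ without overlap, and without WT 1 they were -0.19 and 0.41. The serotonin receptors ranged from -0.37 (SE 0.437) for Htr3a to 0.86 (SE 0.552) for Htr1d, and without WT 1 these were -0.72 and 0.50. Among the muscarinic receptors the highest was Chrm4 at 0.64 (SE 0.734), and among the nicotinic subunits Chrna4 at 0.43 (SE 0.214) and Chrna10 at -2.19 (SE 1.40) were the extremes. Without WT 1 Chrm4 was at 0.12, Chrna4 at 0.44 and Chrna10 at -2.77. Chrna10 had 78.7 in WT 2 and at most 18.4 in any other library. Over all 61 tested genes of the lists the median log2 fold change was 0.15 (0.11 over 62 without WT 1), with 39 above 0 and 22 below, and 3 of them (Adrb1, Chrm2 and Chrna3) had groups that did not overlap, against the 6.85% of all tested genes.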

How the data were processed

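RNA-seq of brain was analysed in 3 WT and 3 Sgo1-/+ libraries. Libraries were made with the TruSeq RNA V2 kit per the labels, a kit that does not mark strand, and per the study's methods paired reads were aligned to mm10 in Strand NGS. The submitters' processing notes also list BWA and edgeR, without a role, and the annotation release and counting rule were not given in the sources used here. The authors deposited 1 table with an estimated count per gene and library, not normalized, of which about 48% of values are not whole. Its columns of normalized values were not used, and its fold change column served only to tell which columns were WT. Within each group, the sample numbers of the columns were matched to the numbers in the sample titles. The sex-linked genes matched the sex labels, which cannot tell apart mice of the same sex within a group.

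Estimated counts were rounded, filtered (edgeR's filterByExpr), scaled by TMM and compared with edgeR 4.0.16 (quasi-likelihood test, R 4.3.3) and Benjamini-Hochberg adjustment at 0.05 over 16337 genes. To normalize, each estimated count was set relative to its library's TMM-adjusted size and rescaled to the mean size. A count of 0 allows up to 3 counts, which covers counting error only. Log2 fold changes are Sgo1-/+ over WT, and the SE is the fold change over the root of the F statistic. DESeq2 1.42.0 and limma 3.58.1 were alternatives, as were other filters, sex as a covariate, a replicate block and leaving out each library. Gene positions are those given by the authors with the counts, exon lengths and overlaps are from GENCODE vM21 (GRCm38), and promoters are from RefSeq. The fit was tested on simulated data with less spread between libraries than these data had, so that test does not cover the spread here.

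The genes named are the 10 members, listed pathway genes with an unadjusted p under 0.05, the tested extremes of each list, preset regulators and the 3 most similar genes per member. Some genes that this rule names are not reported here. Lmx1a, Lmx1b, Foxa1, Foxa2, Tlx3, Gata3, Prph and Chrna6, and the receptors named without WT 1, are additions made once values were known. The members and lists were chosen with earlier results of these data known.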

Additional observations from a re-analysis of the deposited data

How the results depend on the processing

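The lowest adjusted p of the 10 genes in any alternative was 0.770. Among alternative values of their log2 fold changes, 108 kept the direction and 17 turned it. Besides leaving out a library, Tph2 became 0.21 with limma and 0.00404 with the replicate block, and Slc18a2 became 0.0702 with limma, 0.0809 with sex as a covariate and 0.0666 with the replicate block. Leaving out each library in turn, log2 fold changes ranged over -2.04 to -0.75 for Th, -0.52 to 0.0383 for Ddc, -0.85 to 0.94 for Slc6a3, -5.47 to 2.68 for Slc6a2, -2.51 to 0.67 for Dbh, -1.57 to 1.33 for Tph2, -1.26 to 0.0309 for Slc6a4, -0.22 to 0.48 for Slc18a2, -0.49 to 0.36 for Chat and -0.68 to 0.45 for Slc5a7. The upper ends of Slc6a2, Dbh, Tph2, Slc6a4, Slc18a2 and Slc5a7 were without WT 1. The median over the 10 genes was -0.62, and from -0.86 (without WT 2) to 0.34 (without WT 1) with each library left out.

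DESeq2 called 3 genes at an adjusted p under 0.05 and 1 of the 10 genes at an unadjusted p under 0.05. Shares of all genes past a p threshold were computed only for the main fit and for the fit without WT 1. Genes with an unadjusted p under 0.05 numbered 333 in the main fit, 302 with at least 10 counts in every library and 280 with the replicate block. DESeq2 gave 444 genes, and the fit without the filter 563, at an unadjusted p under 0.05. Members and pathway genes higher and lower in Sgo1-/+ at that p numbered 0 and 2, against 1 and 5 with DESeq2, 1 and 6 without the filter, 1 lower with at least 10 counts in every library, and 2 higher with the replicate block. With each library left out, they numbered 0 to 4 higher and 1 to 6 lower. The 4 higher were without WT 3, where 4 were lower and 1040 of all genes had an unadjusted p under 0.05. Genes at that p numbered 240 to 1040 (626, or 3.77%, without WT 1), and genes with an adjusted p under 0.05 numbered 0 to 1. Members at that unadjusted p numbered 0 to 1 (Th without WT 1 and without Sgo1-/+ 1). Members without overlap numbered 0 to 3, beside 13% to 24% of all tested genes. Same-numbered libraries of the 2 groups deviated with r of -0.146, 0.0147 and -0.207, and differently numbered ones with -0.229 to 0.295. With 3 libraries per group these values cannot show whether the numbers pair the mice. The cause of these changes was not tested. Dbh, Slc6a2, Slc6a3 and Tph2, with some libraries at or under 3 counts, are limited by depth.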

Other observations

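Of the 83 listed pathway genes found in the table, 9 were higher in both WT 1 and Sgo1-/+ 3 than in the other 4 libraries, with over 3 normalized counts in each library. Those named here, Qdpr, Aldh1a1, Slc44a1 and Slc29a4, were chosen after their values were seen. How many of all genes had this pattern was not counted. Qdpr, which regenerates tetrahydrobiopterin, had 3988 in WT 1 and 3481 in Sgo1-/+ 3, against 1352 to 2289 elsewhere. Aldh1a1, an aldehyde dehydrogenase of some midbrain dopamine neurons, had 961 and 741, against 250 to 502. The choline transporter-like gene Slc44a1 had 1828 and 1900, against 1233 to 1466, and the monoamine transporter Slc29a4 had 444 and 188, against 88.0 to 110. The summed thalamus markers were also highest in this pair, at 969 and 2717 against 283 to 544 elsewhere, mostly from Prkcd (537 and 2114), whereas Lef1 was lowest in WT 1 (39.8).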
